A study of Homo sapiens with 8 samples.

Results

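The splicing genes described here are 72 of the 12109 rows of the authors' deposited table of translation efficiency. They were taken by gene name. A row was a member if its name began with SRSF, HNRNP, SF3A, SF3B, SNRP, SNRNP, PRPF or U2AF, or was EFTUD2, and if what followed that beginning did not end in P and a number, as the 13 pseudogene rows left out do. Read over the whole name, the same exclusion would also drop the SNRNP genes and leave 65 rows. The members fall into 5 classes: 11 SR proteins (SRSF), 19 hnRNP proteins (HNRNP), 17 snRNP proteins (SNRP and SNRNP), 11 U2 factors (SF3A, SF3B and U2AF) and 14 PRPF proteins with EFTUD2. GENCODE release 29 annotates 84 protein-coding genes that fit the names. No row bore the name of 12 of these genes, among them HNRNPA1, HNRNPA3, SNRPE, SNRPA1 and U2AF1. Each row stands for 1 transcript of a gene, and the filter that rows had to pass is not stated. The row named HNRNPUL2-BSCL2 is a readthrough transcript annotated as a target of nonsense-mediated decay, and it shares its start codon with HNRNPUL2.

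The libraries came from human hepatic stellate cells, the collagen-producing cells of the liver sinusoid, labelled as a cell line and grown in serum. There were 4 groups of 2 libraries, 8 in all: ribosome profiling of LARP6 knockdown cells, RNA-seq of LARP6 knockdown cells, ribosome profiling of control cells and RNA-seq of control cells. Knockdown cells carried the genotype label LARP6 kd and the treatment label dsiLARP6, and control cells the labels WT and dsi-control, with no other agent named for either. LARP6 is a La-related RNA-binding protein known to bind a stem-loop in type I collagen mRNAs, and the question of the comparison is how its loss alters the translation of each message. Translation efficiency is ribosome footprints relative to RNA. The table holds no value per library, so no replicate spread, depth or standard error can stand beside its values.

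Introns are removed by the spliceosome, in which small nuclear RNAs and their proteins (snRNPs) recognise the splice sites, rearrange and cut. SR proteins bind exons through RNA recognition motifs and recruit the machinery through arginine-serine domains, whereas many hnRNP proteins coat nascent transcripts and often repress nearby splice sites. In fibrogenic cells a known splicing event is inclusion of the extra domain A exon of fibronectin, which SR proteins help to regulate. Many SR and hnRNP genes also control their own messages by splicing in or out exons that expose the mRNA to decay.

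Sequences around the annotated start codon are printed for the genes on which the following results turn. Each runs from 10 bases before the A of the start codon to 10 bases from that A onward, read from GENCODE release 29 transcripts on GRCh38, in the direction of the mRNA. The capitals mark position −3, the start codon and position 4, counted from the A as 1, which are the places where a purine and a G are known to favour initiation. The first lines are 5 subunits of the Sm ring, which share 1 complex but had very different efficiencies.
SNRPD3 (chr22:24557675-24557677, plus strand): tcctgccAagATGTctattg
SNRPB (chr20:2470688-2470690, minus strand): aaccgccAccATGAcggtgg
SNRPF (chr12:95859074-95859076, plus strand): cgtggttAcgATGAgtttac
SNRPG (chr2:70293647-70293649, minus strand): agtatacAccATGAgcaaag
SNRPD1 (chr18:21612430-21612432, plus strand): cgccgctAggATGAagctcg

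The SR proteins are shown because none of the 11 has a G at position 4.
SRSF1 (chr17:58007135-58007137, minus strand): cgtcaccGccATGTcgggag
SRSF2 (chr17:76737158-76737160, minus strand): actcagaGctATGAgctacg
SRSF3 (chr6:36596763-36596765, plus strand): agatctcGaaATGCatcgtg
SRSF4 (chr1:29181750-29181752, minus strand): cgttgccGggATGCcgcggg
SRSF5 (chr14:69768157-69768159, plus strand): gccggacAtcATGAgtggct
SRSF6 (chr20:43458034-43458036, plus strand): cgccacgGacATGCcgcgcg
SRSF7 (chr2:38751254-38751256, minus strand): gtctgtcAtcATGTcgcgtt
SRSF8 (chr11:95067227-95067229, plus strand): tctcggaGccATGAgctgcg
SRSF9 (chr12:120469607-120469609, minus strand): ggcggtgCggATGTcgggct
SRSF10 (chr1:23980253-23980255, minus strand): cgccgccGccATGTcccgct
SRSF11 (chr1:70232111-70232113, plus strand): cataaaaTtaATGAtaaata

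The last lines are the SF3B subunits with the lowest unadjusted p-values, and the lowest efficiencies outside the SR proteins.
SF3B1 (chr2:197434997-197434999, minus strand): agtggacAaaATGGcgaaga
SF3B4 (chr1:149927757-149927759, minus strand): ctctttcGccATGGctgccg
HNRNPC (chr14:21234191-21234193, minus strand): atcaaacAcgATGGccagca
SF3A3 (chr1:37989963-37989965, minus strand): ctaagggAagATGGagacaa

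No splicing gene of the 72 changed past the threshold in LARP6 knockdown cells. At an adjusted p under 0.05 in the authors' deposited table, 0 of 72 members were called, against 266 of all 12109 rows (2.20%). The adjustment is Benjamini-Hochberg over the whole table, and the program behind the p-values is not named in any source used. At an unadjusted p under 0.05 the authors' deposited table lists 4 of 72 members (5.56%), against 10.3% of all rows. All 4 lay higher after knockdown and 0 lower, against 661 rows higher (5.46%) and 585 lower over that whole table. Each of the authors' 2 methods taken alone also called 0 members. The lowest adjusted p of a member was 0.142, for SNRPB, in the authors' deposited table.

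The changes of the splicing genes were small in both directions. In the authors' deposited table, 42 members lay above 0, 28 below and 2 at 0. Their median log2 change was 0.08 and their mean 0.03 (SD across the 72 genes 0.38), against a median of 0.015 over all rows of the authors' deposited table. The members ranged from −1.33 for U2AF1L4 to 0.87 for SF3B4. In the authors' deposited table, 61 of 72 members (84.7%) lay within 0.5 of no change on the log2 scale, against 66.7% of all rows and 68.6% of protein-coding rows. Of the 135 rows of other splicing genes taken up below, 104 (77.0%) lay within 0.5. By list this share ran from 65% to 88.5%, so a narrow spread was not particular to the members. A log2 change of 1 or more in size was reached by 1 member (1.39%), against 10.6% of all rows of that table. The smallest size of a called change anywhere in the authors' deposited table was 0.34. The cumulative plot shows the steeper course of the splicing genes through 0.

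**Figure D1:**
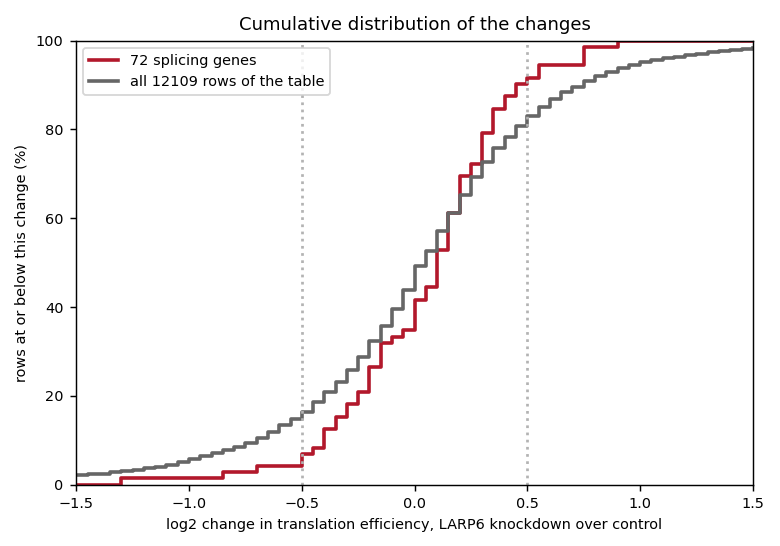
Share of rows (percent, y axis) at or below each log2 change in translation efficiency, LARP6 knockdown over control (x axis, in steps of the plotted bins, ends not shown), for the 72 splicing genes (red) and all 12109 rows (grey). Dotted lines mark 0.5 on either side of no change, between which 84.7% of the splicing genes and 66.7% of all rows lay.

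The classes differed little in their typical change and more in their spread. The median log2 change in the authors' deposited table was 0.11 for SR proteins, 0.08 for hnRNP proteins, 0.06 for snRNP proteins, 0.007 for U2 factors and 0.10 for PRPF proteins with EFTUD2. The hnRNP proteins were the narrowest class, from −0.34 to 0.39, and 19 of 19 lay within 0.5 in the authors' deposited table. The U2 factors were the widest, from −1.33 to 0.87, with 8 of 11 within 0.5 in that table. Differences between classes were not tested, because the genes were chosen with earlier results known and no value per library is at hand. The plot of changes by gene shows these ranges.

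**Figure D2:**
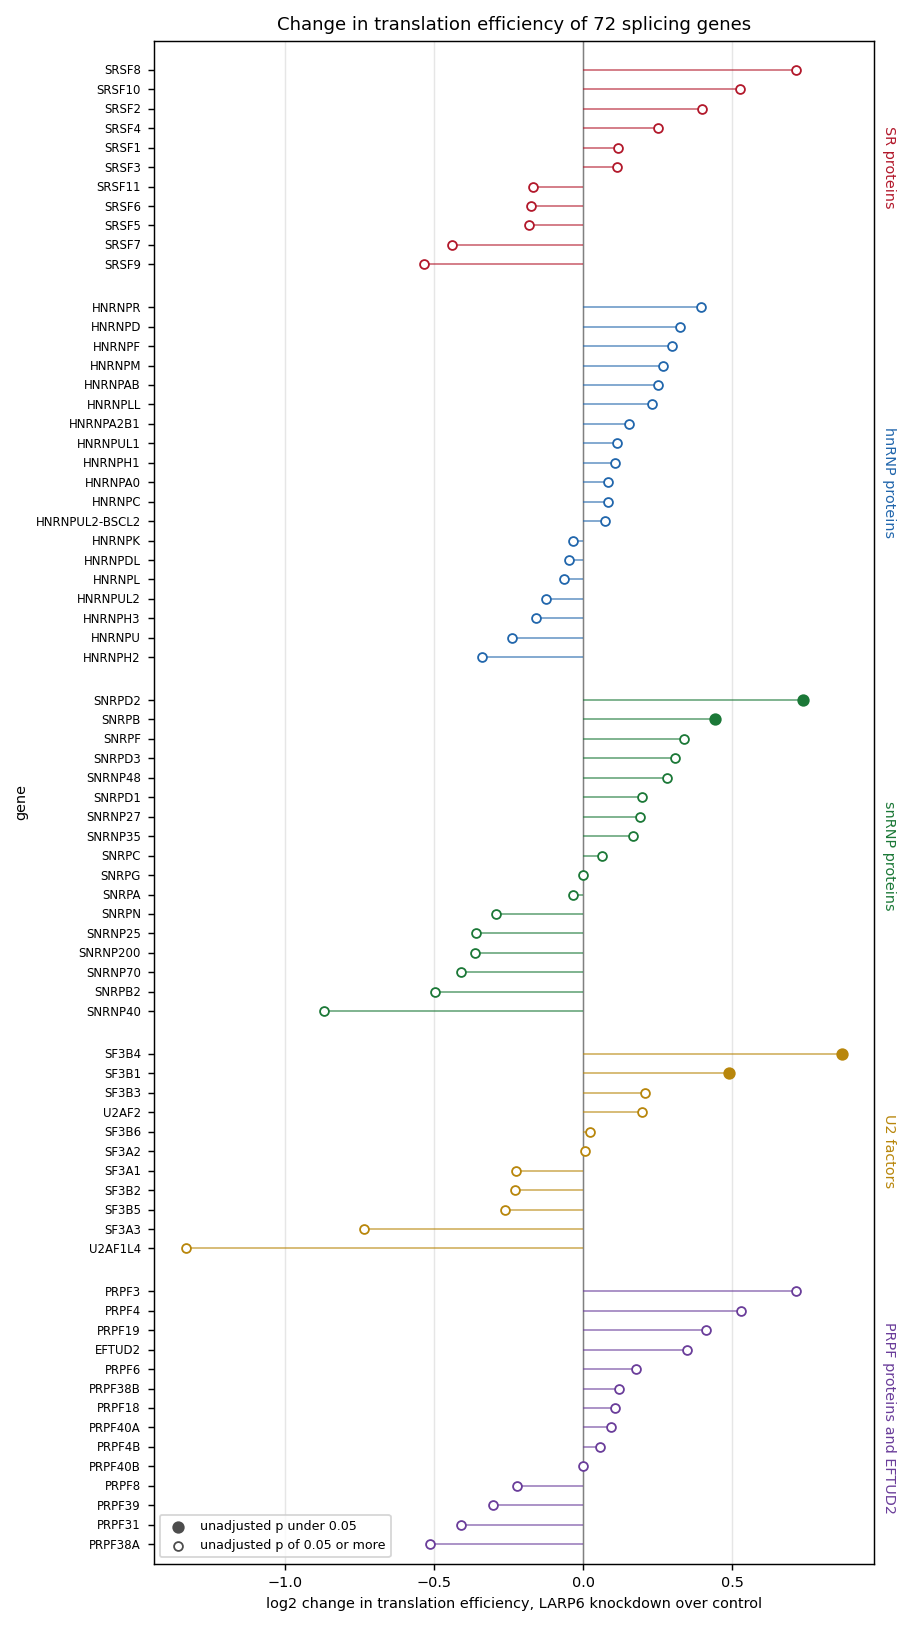
Log2 change in translation efficiency, LARP6 knockdown over control (x axis), for each of the 72 splicing genes (y axis), grouped by class and coloured by class. Filled points are the 4 genes with an unadjusted p under 0.05 (SNRPD2, SNRPB, SF3B4 and SF3B1), all to the right of 0, and no gene passed an adjusted p of 0.05.

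SR proteins spread to both sides of 0. In the authors' deposited table, 6 lay above and 5 below, with 0 of 11 called and 0 of 11 at an unadjusted p under 0.05. SRSF8, a close copy of SRSF2, had the highest log2 change, 0.71 (adjusted p = 0.689), with a log2 efficiency of 0.20 in knockdown cells and −0.52 in control cells in the authors' deposited table. The control values here and below are derived as the knockdown efficiency minus the log2 change of the authors' second method. SRSF10, which acts as a repressor once dephosphorylated, had 0.53 in the authors' deposited table, with efficiencies of −0.73 in knockdown and −1.26 in control cells. SRSF2, an SR protein that stays in the nucleus, had a log2 change of 0.40 (unadjusted p = 0.060, adjusted p = 0.529) in the authors' deposited table, with efficiencies of −0.32 in knockdown and −0.72 in control cells.

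At the other end of the class stood SRSF9, a relative of SRSF1, with a log2 change of −0.53 (adjusted p = 0.716) and efficiencies of −1.42 in knockdown and −0.89 in control cells in the authors' deposited table. SRSF7, an adaptor for mRNA export, had −0.44 (unadjusted p = 0.056, adjusted p = 0.514) with efficiencies of 0.60 in knockdown and 1.04 in control cells in the authors' deposited table. The remaining SR proteins lay between −0.18 and 0.25 in that table. Of these, SRSF1, the founding SR protein, had 0.12 and SRSF4 had 0.25, while SRSF3, the smallest SR protein and also an export adaptor, had 0.11 in the authors' deposited table. SRSF5 and SRSF6 each had −0.18 and SRSF11 had −0.17 in the authors' deposited table. None of these changes passed the threshold.

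hnRNP proteins kept close to their control values. The authors' deposited table lists 12 above 0 and 7 below, with 0 of 19 called and 0 of 19 at an unadjusted p under 0.05. Highest were HNRNPR at 0.39, HNRNPD, also known as AUF1, a binder of AU-rich elements, at 0.33, and HNRNPF, a binder of G tracts, at 0.30 (unadjusted p = 0.092), by the authors' deposited table. Lowest were HNRNPH2 at −0.34, HNRNPU, a nuclear scaffold protein, at −0.24 and HNRNPH3 at −0.16 in the authors' deposited table. The closely related H and F proteins thus lay on both sides, 2 above 0 and 2 below, and reads of HNRNPH1 and HNRNPH2 may be hard to assign to one or the other.

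Among snRNP proteins, the Sm proteins that form the ring around each spliceosomal RNA lay at or above 0. Of 7 ring subunits, SNRPE had no row. Of the other 6, the authors' deposited table lists 5 above 0, 0 below and 1 at 0, with a median log2 change of 0.32. Over all rows 50.8% lay above 0. SNRPG, the 1 at 0, had −0.05 by the authors' first method. The ring was not among the planned groups. SNRPD2 had a log2 change of 0.74 (1.67-fold, unadjusted p = 0.0092, adjusted p = 0.213), with efficiencies of 0.61 in knockdown and −0.12 in control cells, in the authors' deposited table. SNRPB had 0.44 (1.36-fold, unadjusted p = 0.0048, adjusted p = 0.142), with 1.54 in knockdown and 1.10 in control cells, in the authors' deposited table. Neither passed the adjusted threshold. SNRPF had 0.34, SNRPD3 0.31, SNRPD1 0.20 and SNRPG 0.00 in the authors' deposited table. SNRPN, a near-identical copy of SNRPB that can stand in for it in the ring, had −0.29 in that table, and reads shared by this pair may be split between their rows.

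The 3 lowest values of the class belonged to proteins of single snRNPs. SNRNP40, a U5 protein, had the lowest log2 change of the class, −0.87 (unadjusted p = 0.153, adjusted p = 0.756), with efficiencies of −1.02 in knockdown and −0.15 in control cells in the authors' deposited table. SNRPB2, which binds U2 RNA, had −0.50, and SNRNP70, which binds U1 RNA, had −0.41 (adjusted p = 0.665), by the authors' deposited table. SNRNP40 and its partners in the U5 core among the members, PRPF8, SNRNP200, EFTUD2 and PRPF6, 5 in all, gave 2 changes above 0 and 3 below. Their median was −0.22 in the authors' deposited table. TXNL4A, a tri-snRNP protein outside the name rule, was not in this count and had 0.51 in that table. EFTUD2, the U5 GTPase, had 0.35, whereas PRPF8, the scaffold of the catalytic centre, had −0.22 and SNRNP200, the helicase that unwinds U4 from U6, had −0.36 in the authors' deposited table. The 5 U5 core changes thus differed in sign, and none of them passed the threshold. Their unadjusted p-values in the authors' deposited table ran from 0.133 to 0.456, so their directions are uncertain. This core was not among the planned groups.

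The U2 factors held the extremes of the whole gene set. SF3B1, the largest SF3B subunit and a frequent target of mutation in blood cancers, had a log2 change of 0.49 (1.40-fold, unadjusted p = 0.0129, adjusted p = 0.251), by the authors' deposited table. Its efficiency was −0.03 in knockdown cells and −0.52 in control cells. SF3B4, which contacts the pre-mRNA next to the branch site, had 0.87 (1.82-fold, unadjusted p = 0.0429, adjusted p = 0.450) with −0.70 in knockdown and −1.57 in control cells in the authors' deposited table. SF3B3, a further subunit of that complex, had 0.21, and SF3B5 had −0.26 in the authors' deposited table. SF3A3, which tethers SF3A to the U2 particle, had −0.73 (adjusted p = 0.932), by the authors' deposited table. U2AF1L4, a relative of the small U2AF subunit that reads the 3′ splice site, had −1.33 (unadjusted p = 0.238, adjusted p = 0.840), with −0.15 in knockdown and 1.18 in control cells, in the authors' deposited table. Its change was the largest of all members in size, yet its p-value was far from the limit. The large subunit U2AF2 had 0.20 in that table.

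PRPF proteins with EFTUD2 gave 9 changes above 0, 4 below and 1 at 0, with 0 of 14 called and 0 of 14 at an unadjusted p under 0.05, in the authors' deposited table. PRPF3 and PRPF4, which sit together on the U4/U6 particle, had log2 changes of 0.72 (adjusted p = 0.909) and 0.53 (adjusted p = 0.669), by the authors' deposited table. A further protein of that particle, PRPF31, had −0.41 in the authors' deposited table. PRPF19, the ubiquitin ligase of the catalytic spliceosome, had 0.41 (unadjusted p = 0.056, adjusted p = 0.514) with efficiencies of 0.61 in knockdown and 0.20 in control cells in the authors' deposited table. PRPF38A, which is needed to activate the spliceosome, had −0.51 and PRPF39, a U1-associated protein, had −0.30 in the authors' deposited table.

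Differences between genes in their efficiency were much wider than differences between knockdown and control cells. Across the 72 members the log2 efficiency spanned 6.22 in knockdown cells and 5.74 in control cells, from the values of the authors' deposited table. Spearman's rho between knockdown and control efficiencies across the 72 genes was 0.92, against 0.84 across all rows. The control value is derived from the knockdown value, and genes are not independent replicates, so this describes the table only. The members' median log2 efficiency was −0.12 in knockdown and −0.22 in control cells, against 0.0078 in knockdown and 0.0025 in control cells over all rows of the authors' deposited table. Class medians in knockdown and control cells were −0.32 and −0.72 for SR proteins, −0.09 and −0.32 for hnRNP proteins, −0.54 and −0.15 for snRNP proteins, 0.02 and 0.18 for U2 factors, and −0.18 and −0.21 for PRPF proteins with EFTUD2, from the authors' deposited table. Over the members without a named pseudogene these medians were 0.20 and 0.18 for all members, 0.27 and 0.24 for SR proteins, 0.41 and 0.44 for hnRNP proteins, −0.54 and −0.44 for snRNP proteins, 0.06 and 0.29 for U2 factors, and −0.15 and −0.14 for PRPF proteins with EFTUD2. The medians of all members, SR proteins and hnRNP proteins thus changed sign with that restriction. It kept 39 of the 72 members, but only 4 of 11 SR proteins and 7 of 19 hnRNP proteins. The restricted medians of these 2 classes therefore rest on few genes. The knockdown and control medians of a class can fall on different genes, so their difference is not its median change. Per gene, the median log2 change was 0.11 for SR proteins and 0.06 for snRNP proteins in the authors' deposited table.

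Several splicing messages had very low efficiencies in both knockdown and control cells, as the plot of efficiencies shows. In the authors' deposited table, 6 of 72 members (8.33%) lay below −2 in knockdown cells, against 4.73% of all rows, and 7 of 72 (9.72%) in control cells, against 4.95%. SRSF6, an SR protein with a pair of RNA recognition motifs, was lowest at −4.27 in knockdown and −4.10 in control cells. Only 37 rows (0.306%) of the authors' deposited table lay at or below the knockdown value of SRSF6. HNRNPC, which binds uridine tracts and keeps cryptic exons out, had −3.49 in knockdown and −3.58 in control cells, and SF3A3 had −3.61 and −2.87, in the authors' deposited table. HNRNPK, a protein that binds C-rich RNA, and SRSF3 followed, with −2.58 and −2.42 in knockdown and −2.55 and −2.54 in control cells, in the authors' deposited table. The highest values in knockdown cells belonged to snRNP proteins, SNRPD3 (1.95 in knockdown and 1.64 in control cells), SNRPB, and SNRNP35, a protein of the minor spliceosome (1.35 in knockdown and 1.17 in control cells), in the authors' deposited table. In control cells SNRPD3 was followed by SF3B6 and U2AF1L4. Among U2 factors SF3B6, which touches the branch site adenosine, was highest in control cells (1.27 in knockdown and 1.23 in control cells), and among PRPF proteins it was PRPF18 (0.79 in knockdown and 0.68 in control cells), in the authors' deposited table. Within the Sm ring alone the subunits spanned 4.00 on the log2 scale in knockdown and 3.89 in control cells, from SNRPD3 down to SNRPD1 at −2.05 and −2.25.

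**Figure D3:**
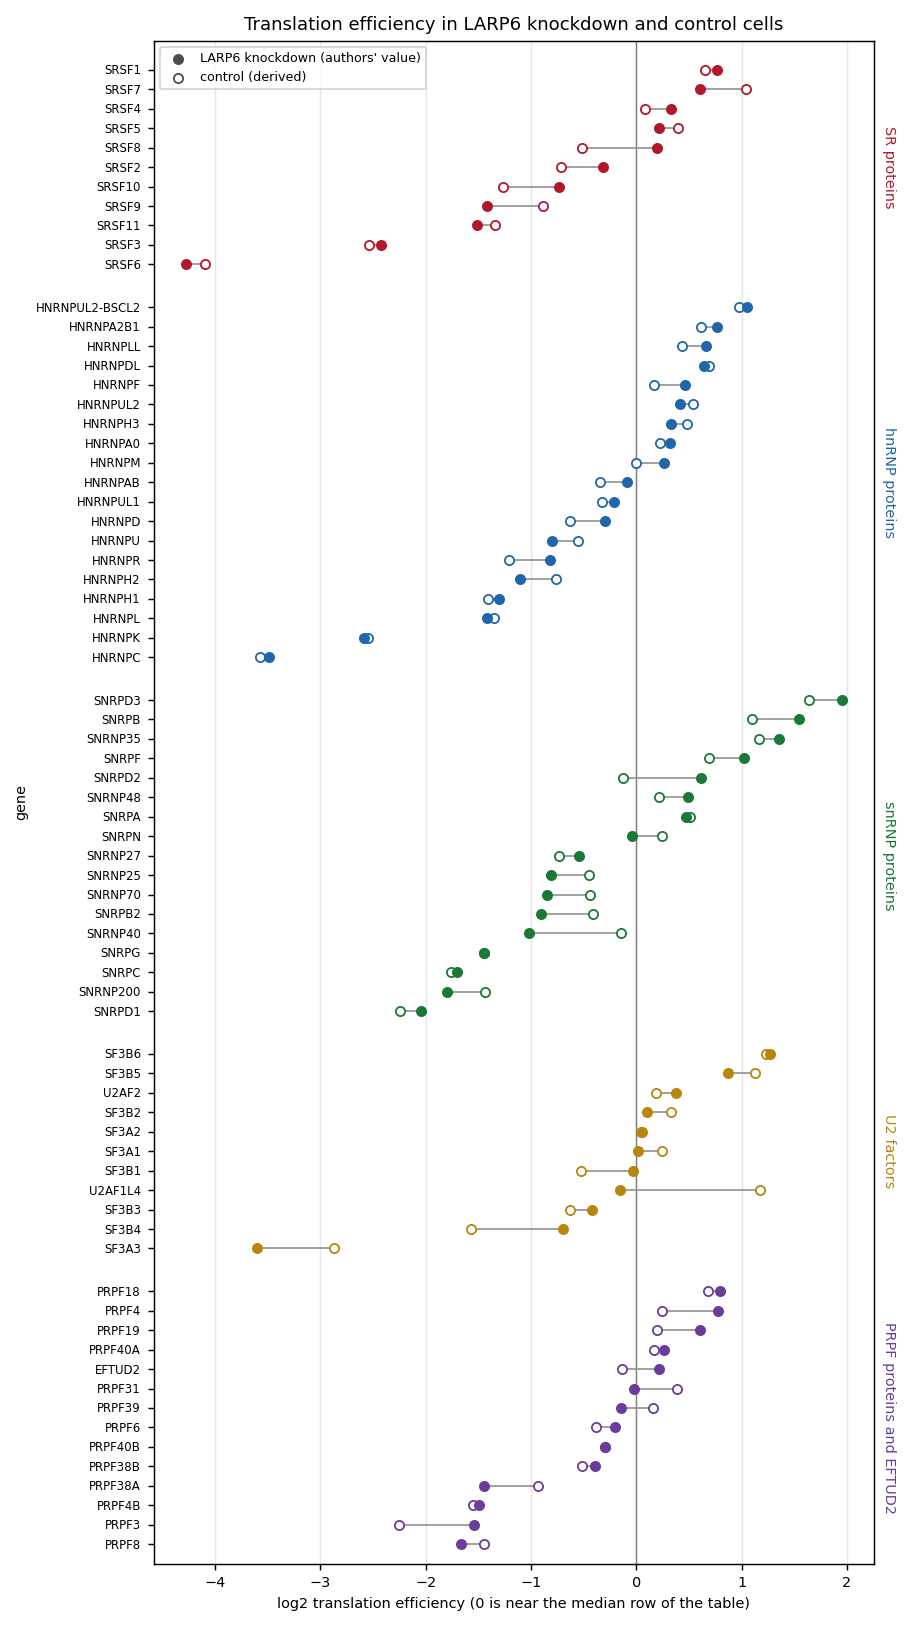
Log2 translation efficiency (x axis) of each splicing gene (y axis), with LARP6 knockdown as filled points (the authors' values) and control as open points (derived here), ordered within each class by the knockdown value. The gap between the points of a gene is small beside the spread of 6.22 between genes in knockdown cells, and SRSF6, SF3A3 and HNRNPC lie far to the left.

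The low efficiencies moved with the number of pseudogenes of a gene. Named pseudogenes were counted as names made of the gene symbol, P and a number in GENCODE release 29 or RefSeq. The 39 members with none had a median log2 efficiency of 0.20 in knockdown and 0.18 in control cells, and the 16 with 1 had −0.20 and −0.25, from the authors' deposited table. The 11 with 2 to 4 had −0.82 and −1.21, and the 6 with 5 or more had −2.06 and −2.15, from the authors' deposited table. The same order held over protein-coding rows, with knockdown medians of 0.04, −0.28, −0.65 and −1.68 in 8940, 862, 549 and 209 rows of the authors' deposited table. Spearman's rho of the pseudogene count with knockdown efficiency was −0.38 across the 72 members and −0.20 across 10560 protein-coding rows. The members' change after knockdown did not follow the same order, with median log2 changes of 0.09, 0.03, 0.27 and 0.03 over the 4 bins, whereas over protein-coding rows they were 0, 0.04, 0.12 and 0.23, in the authors' deposited table.

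HNRNPC has 9 named pseudogenes, SRSF3 and HNRNPK have 5 each, and SRSF6 and SF3A3 have 2 each. SNRPG and SNRPC have 20 each, with knockdown efficiencies of −1.45 and −1.70 in the authors' deposited table. Members with 0 named pseudogenes also reached low values in knockdown cells, with SNRPD1 at −2.05, SNRNP200 at −1.80, PRPF8 at −1.67, PRPF3 at −1.54 and HNRNPH2 at −1.10, while HNRNPDL, which has 5, lay at 0.64, in the authors' deposited table. Of the 12 genes without a row, 4 have named pseudogenes: HNRNPA1 has 76, HNRNPA3 17, SNRPE 11 and SNRPA1 2. The others, among them U2AF1, have 0. In the authors' deposited table, the 13 pseudogene rows of 10 members stood above their parent genes in knockdown cells in 13 of 13 cases and in control cells in 12 of 13. The median log2 difference in knockdown cells was 2.57, with a range of 0.03 to 4.54. SF3A3P1 had 0.93 against −3.61 for SF3A3, SRSF6P2 had −0.46 against −4.27 for SRSF6, and SNRPCP2 had 2.44 against −1.70 for SNRPC, in knockdown cells in the authors' deposited table. None of the 13 pseudogene rows was called, and 0 of 13 had an unadjusted p under 0.05, in that table. How reads that fit several places were counted is not stated in the sources read here, and its part in these levels was not tested.

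**Figure D4:**
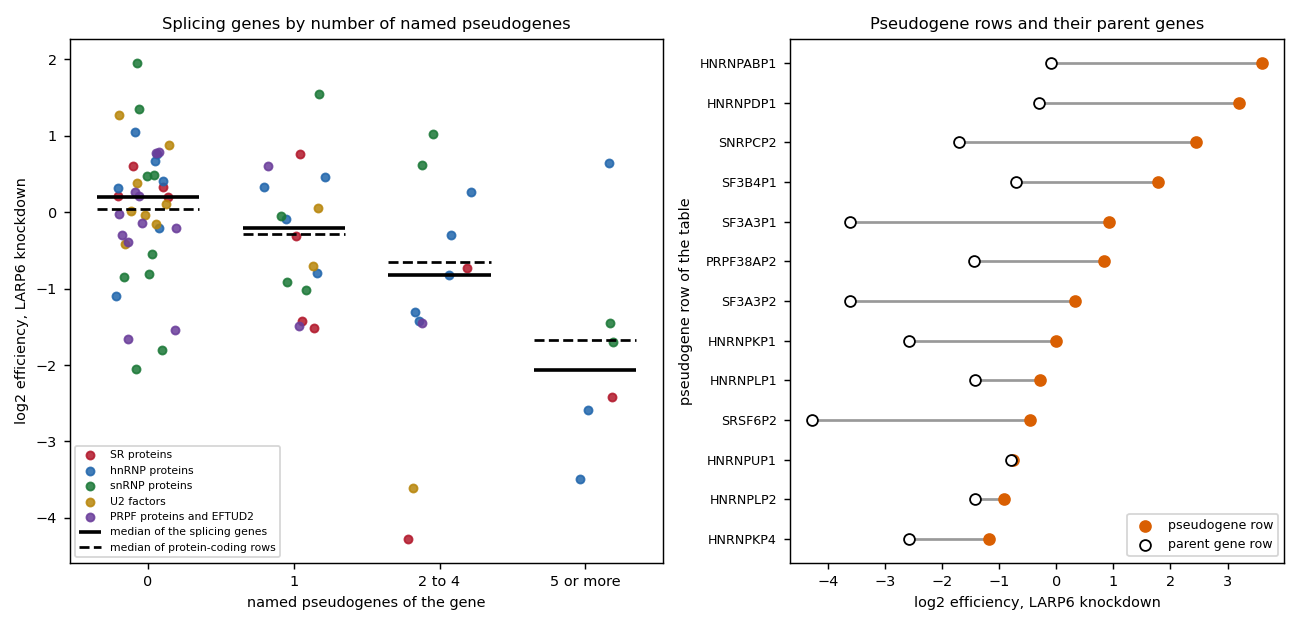
Left, log2 efficiency in LARP6 knockdown cells (y axis) of each splicing gene by its number of named pseudogenes (x axis), coloured by class and spread sideways for legibility, with the median of the splicing genes (solid line) and of protein-coding rows (dashed line). Right, log2 efficiency in knockdown cells (x axis) of 13 pseudogene rows (filled) and their parent genes (open), in which every filled point lies to the right of its open one.

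Most start sites, printed above for some genes, had a purine before them. A purine at position −3 was found in 66 of 70 members with a readable context (94.3%), against 87.0% of 10165 protein-coding rows. A G at position 4 was found in 32 of 70 members (45.7%), against 53.7% of those rows. By class, 0 of 11 SR proteins had the G, against 11 of 18 hnRNP proteins, 6 of 16 snRNP proteins, 7 of 11 U2 factors and 8 of 14 PRPF proteins with EFTUD2. The start codon shared by HNRNPUL2 and HNRNPUL2-BSCL2 has the purine and the G, and it is counted once for each row. Both the lowest member, SRSF6, and the SR protein with the highest efficiency in knockdown cells, SRSF1 at 0.77 in the authors' deposited table, have a G at −3 and no G at 4. HNRNPC and SF3A3, both far down, have an A at −3 and a G at 4. The 30 members with both features had a median knockdown log2 efficiency of −0.09, against −0.18 for the other members with a readable context, in the authors' deposited table.

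An ATG upstream of the start codon was found in the 5′ leader of 24 of 70 members (34.3%), against 49.3% of 10434 protein-coding rows. Among snRNP proteins 9 of 16 had one, against 2 of 18 hnRNP proteins and 3 of 11 SR proteins. SNRNP27 had the most, 14, followed by SNRNP25 and SF3A3 with 8 each. Members with an upstream ATG had a median knockdown log2 efficiency of −0.48 and those without one −0.0065, against −0.20 and 0.12 for protein-coding rows, in the authors' deposited table. Within the snRNP proteins the order was the other way, −0.54 with one and −0.85 without. Spearman's rho of transcript length with knockdown efficiency was −0.22 over 71 members and −0.43 over 10560 protein-coding rows. A start of the kind found in ribosomal protein mRNAs, a C followed by 4 pyrimidines at the RefSeq start on GRCh38.p14, was present on the gene's strand at 5 of 88 member promoters (5.68%). These promoters belonged to 64 of the 72 members, so some genes counted more than once and others were not covered. The share over all 35116 promoters was 4.07%, and 42 of 75 promoters of ribosomal protein genes (56%) had it.

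Of the wider splicing machinery, taken as 7 lists by role, 2 of 135 rows (1.48%) passed an adjusted p of 0.05 (authors' deposited table), against 2.20% of all rows. An unadjusted p under 0.05 was listed for 10 of them (7.41%), against 10.3% of all rows of the authors' deposited table. BUD31, which holds the active spliceosome together around the catalytic centre (chr7:99408978-99419608, GRCh38), fell by 1.08 on the log2 scale (0.474-fold, adjusted p = 0.0028), with efficiencies of −0.10 in knockdown and 0.97 in control cells, in the authors' deposited table. DDX39A, an mRNA export helicase (chr19:14408851-14419367, GRCh38), rose by 0.95 (1.93-fold, adjusted p = 0.023), with 0.91 in knockdown and −0.04 in control cells, in the authors' deposited table. Its close copy DDX39B had a log2 change of −0.11 (adjusted p = 0.97), by the authors' deposited table, and reads shared by this pair may be split between their rows.

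The list that held BUD31, proteins of the PRPF19 complex and the catalytic steps other than the members PRPF19 and PRPF18, had 6 of 26 rows above 0 and 20 below (5730 of all 12109 rows lay below), with a median log2 change of −0.17, 0 called higher and 1 called lower, in the authors' deposited table. Its other members ran from ZNF830 at −1.05 up to BUD13, a protein of the retention and splicing complex, at 0.24 in the authors' deposited table. The exon junction complex and its partners had 9 of 14 rows above 0, a median of 0.08 and DDX39A as the sole call in the authors' deposited table, with the core subunit MAGOH lowest at −0.62.

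None of the remaining lists held a called row. U1, U2 and branch site proteins had 10 of 19 rows above 0 and a median log2 change of 0.03, from LUC7L, a U1-associated protein, at −1.11 to SUGP1, a partner of SF3B1, at 0.96 in the authors' deposited table. Tri-snRNP, LSm and helicase proteins had 11 of 20 above 0 and a median of 0.05, from IK at −0.67 to LSM8, which belongs to the LSm ring on U6, at 1.03 (unadjusted p = 0.014, adjusted p = 0.262), by the authors' deposited table. Regulators of splice site choice had 19 of 37 rows above 0, a median of 0.04 and 5 unadjusted p-values under 0.05, from RBM10 at −0.63 to TARDBP at 0.79 in the authors' deposited table. Kinases of SR proteins had 5 of 7 above 0 and a median of 0.12, from CLK1 at −1.01 to SRPK2 at 0.80 in the authors' deposited table. Proteins that assemble the Sm ring had 7 of 12 above 0 and a median of 0.12, from GEMIN2 at −0.60 to GEMIN8 at 0.62 in the authors' deposited table.

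LARP6 itself had a log2 change in efficiency of 0.07 (adjusted p = 0.98), by the authors' deposited table, with 0.55 in knockdown and 0.49 in control cells. This is a ratio and does not check the knockdown, since LARP6 abundance was not analysed here. As for the labelled cell type, 10 of 13 stellate and fibroblast markers had a row, among them COL1A1, COL1A2, COL3A1, DCN, LUM and PDGFRB. DES, RGS5 and LRAT had none. Of the 10 with a row, 8 were called in the authors' deposited table, 1 higher and 7 lower in knockdown cells, against 2.20% of all rows. Such calls describe change after knockdown and not cell type. The list also holds COL1A1 and COL1A2, type I collagen genes whose mRNAs LARP6 is known to bind. A row was also present for 2 of 7 hepatocyte, 2 of 7 endothelial, 2 of 7 leukocyte and 3 of 5 biliary markers, with 0 called in these lists. A row shows that a gene was measured and not how abundant it was, so the share of other cells was not tested.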

How the data were processed

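Ribosome profiling and RNA-seq were run on 8 libraries, 2 in each of 4 groups. Per the labels' protocols, ribosome profiling used cycloheximide, RNase I digestion of the lysate and a spin that pellets ribosomes. Reads were handled with cutadapt and Bowtie on hg38 (GRCh38), going by the submitters' processing notes, which give no versions. Not given in the sources used here are the RNA selection, the handling of reads that fit several places and the tool behind the comparison. Per the file headers, the authors deposited log2 changes of translation efficiency from 2 methods with a final one, the log2 efficiency of the knockdown, and a p-value per method with a final and an adjusted p-value. In 12109 rows the deposited final p-value is the higher one of both methods (relative tolerance 1e-09), and Benjamini-Hochberg adjustment of it gives the deposited adjusted p-value to within 6.3e-15.

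Counts, medians and derived control efficiencies were computed in Python 3.11.15 with pandas 2.3.3 and numpy 2.4.6, and drawn with matplotlib 3.10.9. Only the Benjamini-Hochberg adjustment was checked on simulated data. The deposited p-values are the only test, since no value per library is at hand. The design had allowed for a fit on counts, which was not run. Depth is unknown. Whether replicates came from separate cultures is not stated in the labels, so p-values may measure technical spread only. The last 6 digits of each transcript identifier were matched to GENCODE release 29, which placed 71 of 72 members (not HNRNPF, which has no coordinates here) and 11590 of 12109 rows. Promoter starts came from RefSeq on GRCh38.p14.

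The members, lists and rules were chosen with earlier results of these data known. Named genes were members with an unadjusted p under 0.05, the 3 highest and 3 lowest changes and the highest and lowest control efficiency of each class, all SR proteins, called genes and the extremes of each list, and LARP6. Genes named beyond this rule were chosen after their values were seen. Alternatives were other thresholds, each method alone, adjustment over protein-coding rows, means in place of medians and, added after seeing the data, the name rule read literally and members without a named pseudogene.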

Additional observations from a re-analysis of the deposited data

How the results depend on the processing

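The count of called members stayed at 0 in the 6 alternatives run: adjusted p under 0.01 or 0.1, a further minimum of 2-fold, either method alone, and adjustment over protein-coding rows. Over all rows the count of 266 became 110 with the 2-fold minimum and 457 with method 1 alone. The count of 2 among other splicing genes became 1 at an adjusted p under 0.01 and 1 with the 2-fold minimum. These changes come from the thresholds themselves or from the less demanding p-value of 1 method. The other 71 alternative values moved by less than the limit used, which for medians was the SD across genes, since there is no replicate spread. That limit is wide. Counts that stayed within their limit also shifted. Over all rows the 266 became 184 at an adjusted p under 0.01, 340 at 0.1 and 342 with method 2 alone. Among other splicing genes the 2 became 3 with method 1 alone. Without members that have a named pseudogene, the median log2 efficiency was 0.20 in knockdown and 0.18 in control cells, against −0.12 and −0.22 over all members. For SR proteins it was 0.27 and 0.24 (−0.32 and −0.72 over the class), and for hnRNP proteins 0.41 and 0.44 (−0.09 and −0.32), so these signs turned. Only 4 SR proteins and 7 hnRNP proteins were left in these medians. For snRNP proteins the control median was −0.44 in place of −0.15. The median log2 change ranged over alternatives from 0.03 to 0.09 for all members, 0.03 to 0.11 for SR proteins, 0.07 to 0.09 for hnRNP proteins and 0.08 to 0.11 for PRPF proteins with EFTUD2. For snRNP proteins it ranged from −0.0058, a mean, to 0.17, and for U2 factors from −0.10 to 0.007, so the sign of these 2 class values depends on the setting. No paired analysis was possible because values per library are not at hand. Leaving out each replicate was not run for the same reason.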
